A study of Mus musculus with 2 samples.

Results

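The mRNAs described here encode the proteins of the mitochondrial ribosome. They were chosen by name on the array, as every coding accession whose gene name begins with Mrpl (large subunit) or Mrps (small subunit) followed by a number. The rule found 75 genes with 77 accessions and 110 probes, of 18754 coding accessions with 26746 probes in all. NIH3T3 cells, an immortalised line of mouse fibroblasts with no engineered allele named in the labels, were grown in medium with 10% serum. Control cells were untreated, and stressed cells received 10 µM thapsigargin, which blocks the pump that loads calcium into the endoplasmic reticulum, for 3 h. Lysates of both were separated on sucrose gradients into polysome-bound RNA (P, labelled with Cy3) and RNA that was free or on monosomes (FM, labelled with Cy5). Each condition had 1 array, which carried RNA pooled from 3 preparations, so no difference between the conditions has a replicate check and no test was possible. The question addressed was how stress of the endoplasmic reticulum altered the loading of these mRNAs onto polysomes.

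Mitochondrial ribosomes translate the few proteins encoded in mitochondrial DNA, nearly all of them parts of the respiratory chain. Their own proteins are encoded in the nucleus, translated by cytosolic ribosomes and imported. Some descend from proteins of bacterial ribosomes, and others were added in the evolution of mitochondria. Calcium loss from the endoplasmic reticulum activates kinases that lower the initiation of translation in the cytosol, which moves many mRNAs from polysomes to the free fraction.

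The 60-base probes below show what was measured for members at both ends of the range. The first group are probes whose 60 bases lie further apart in the genome (mm9) than their own length, so that each joins neighbouring exons, and each is open in at least 1 reading frame. They include the probes of Mrpl2 and Mrps18c, which showed large falls, and of Mrpl3 and Mrps31, which kept more of their polysome association. All are given 5′ to 3′ as deposited.
Mrpl2, chr17:46785301-46785453, plus strand: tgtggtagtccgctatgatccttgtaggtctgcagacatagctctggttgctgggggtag
Mrps18c, chr5:101232118-101233036, plus strand: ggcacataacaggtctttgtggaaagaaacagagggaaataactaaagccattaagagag
Mrpl22, chr11:57990734-57992784, plus strand: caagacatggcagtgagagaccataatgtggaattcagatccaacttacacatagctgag
Mrpl3, chr9:104966444-104973754, plus strand: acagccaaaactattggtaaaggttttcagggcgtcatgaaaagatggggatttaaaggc
Mrps31, chr8:23538340-23539688, plus strand: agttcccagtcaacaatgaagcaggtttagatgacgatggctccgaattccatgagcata
The second group are neighbouring probes of Mrpl18, the one member for which every probe gave a higher ratio of polysomal to free and monosome signal under stress. Capitals mark the 14 bases over which they overlap, 1 of which differs, so these probes are not independent of each other.
Mrpl18, chr17:13106784-13106843, minus strand: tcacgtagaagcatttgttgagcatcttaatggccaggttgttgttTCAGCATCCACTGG
Mrpl18, chr17:13106738-13106797, minus strand: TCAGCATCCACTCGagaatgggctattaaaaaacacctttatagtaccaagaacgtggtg

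Polysome association is given as log2 P/FM, in which the background-corrected P signal is divided by the FM signal, and signal level as A, the average over both fractions of the log2 signal. A coding mRNA counted as detected with A above 4.5, while the 153 negative control spots were at 4.35 or lower, and 10033 accessions passed on both arrays. All 77 accessions of the mitochondrial ribosome passed on both, with A between 5.75 and 13.5 in control cells and between 6.03 and 13.95 in stressed cells. Between 42.5% and 46.3% of the non-control spots were well above background in a channel, no spot was saturated, and precision is limited by having so few arrays. The nearest substitute for replicate error was the spread between probes of one mRNA, with a median standard deviation (SD) of 0.29 for log2 P/FM in control, 0.28 under stress and 0.32 for the change. It leaves out the spread between preparations and labellings. Of the markers of the labelled cell type, 8 of 8 fibroblast genes were detected on both arrays, against 0 of 4 epithelial, 0 of 3 endothelial and 1 of 3 blood genes, the lysosomal protein gene Cd68.

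In control cells the mRNAs of mitochondrial ribosomal proteins were mostly on polysomes. Their median log2 P/FM was 1.24, a P signal 2.37 times the FM signal, with quartiles of 0.53 and 1.75. The median over all detected coding mRNAs was 0.34. At or above 0 were 69 of the 77 accessions, against 63.5% of all detected mRNAs, and 62 lay above the median of all. A log2 P/FM of 2 or more, reached by 3.30% of all mRNAs, was found for 10.

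After thapsigargin the unscaled values of the same mRNAs were mostly below 0, with more signal in the free and monosome fraction. Scaled on spike-in probes, as described below, they were not, with a median of 1.97. The unscaled median log2 P/FM was -0.99, a P signal 0.505 times the FM signal, with quartiles of -1.47 and -0.44, against -0.29 for all mRNAs. At or above 0 were 9 accessions, against 37.4% of all mRNAs, and 14 were above the median of all. A total of 60 accessions went from at or above 0 in control cells to below 0 in stressed cells, which 38.6% of all mRNAs did.

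The median change, stress minus control, was -2.19, or -1.48 relative to the median of -0.71 over all mRNAs. Mrp mRNAs called sensitive, with a change of -0.8 or lower, numbered 69 of 77, against 47% of all mRNAs. A fall of 2 or more was seen for 44, against 13.7% of all. Scaling each array on its 10 spike-in probes, whose median log2 P/FM differed by -2.55 between the arrays, turned the median change of the members to 0.36 and that of all mRNAs to 1.84. That scaling shifts all mRNAs alike, so the position among other mRNAs does not depend on it, and 70 of 77 members lay below the median of all. Falls and rises below are on the unscaled values. The paper states that the fractions were labelled in the proportions found, with more P than FM RNA in control cells and the reverse under stress. Unscaled ratios therefore carry those proportions, which differ in direction between the arrays. The paper reads such a ratio as the part of an mRNA that is bound to polysomes. Also reported there were a loss of heavy polysomes and less protein synthesis in NIH3T3 cells after thapsigargin. What part of the spike-in difference goes with the labelled proportions was not tested. Loess normalisation within each array gave a median change of -1.19 for the members and -0.15 for all mRNAs, with 64 members below the median of all. Below 0 were 74 members without scaling, 73 when each array was centred on its median, 66 with loess and 27 with spike-ins. Over all mRNAs the unscaled change had a median of -0.71 and an upper quartile of 0.17, and the centred change a median of -0.12.

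**Figure D1:**
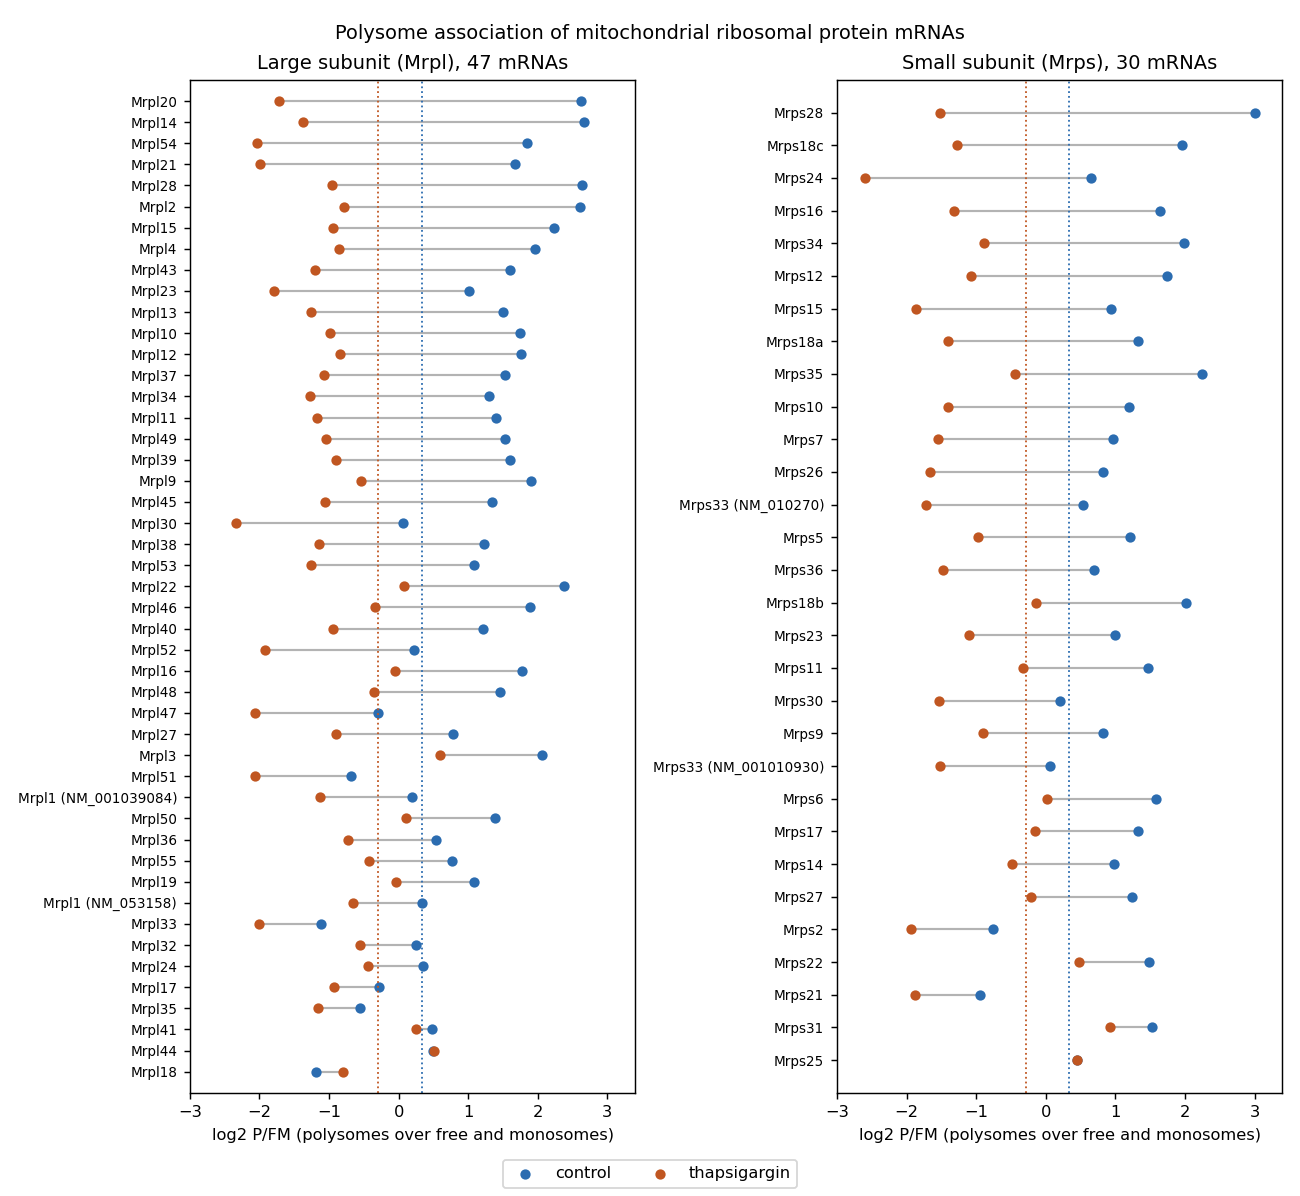
log2 P/FM of each mitochondrial ribosomal mRNA in control cells (blue) and thapsigargin-treated cells (orange), with 1 array each and no error bar, ordered by change within each subunit. Dotted lines mark the medians of all coding mRNAs, 0.34 in control and -0.29 in stressed cells. The unscaled values are shown, on which most lines run from right to left and those of Mrpl44, Mrps25 and Mrpl18 do not, while spike-in scaling adds 2.55 to each change.

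Among mRNAs of the large subunit, Mrpl20 showed the largest fall. Its P signal was 10646 in control and 3188 in stressed cells, and its FM signal rose from 1734 to 10487, so that log2 P/FM went from 2.62 to -1.72. Mrpl14, conserved from bacteria, went from 2.66, the highest value of the subunit in control cells, to -1.38. The change of -4.34 for Mrpl20 and -4.04 for Mrpl14 ranked 5 and 9 from the bottom of the 10033 mRNAs. Mrpl54, a protein that bacteria lack, went from 1.84 to -2.04, and Mrpl21 from 1.67 to -1.99. Mrpl28 went from 2.63 to -0.96, with changes of -3.65 by one probe and -3.54 by the other. Each of these mRNAs was above the median of all in control cells and below it in stressed cells.

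Proteins around the catalytic centre and the exit tunnel of the large subunit differed in how far they fell. Mrpl2, whose bacterial counterpart lies next to the peptidyl transferase centre, went from 2.60 to -0.78. Mrpl3, which reaches towards the same centre, went from 2.06 to 0.60, the highest value of any large-subunit mRNA in stressed cells when all probes were averaged, while Mrpl41 was at 0.91 by its bright probe alone. The 3 probes of Mrpl3 gave changes of -1.49, -1.46 and -1.43. In stressed cells Mrpl3 was thus 1.38 above Mrpl2, more than the spread between probes of one mRNA, although it was the lower of the pair in control cells. Of the proteins that line the exit tunnel, Mrpl22 went from 2.37 to 0.07 and Mrpl23 from 1.02 to -1.79. Mrpl24, a further tunnel protein, went from 0.35 to -0.44, which placed it just short of the threshold with a change of -0.78.

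The stalk of the large subunit, which brings translation factors to the ribosome, gave similar unscaled values for its parts. Mrpl10 changed by -2.73, Mrpl11, at the base of the stalk, by -2.57, and Mrpl12, which forms the stalk itself, by -2.60. These differ by less than the spread between probes, and each rests on 1 probe. With loess the changes were -1.85, -1.02 and -1.06, so the likeness of Mrpl10 to the others depends on the scaling. Mrpl45, which lies where the nascent chain leaves the ribosome, changed by -2.41 and -2.39 by its probes. The lowest values of the subunit in stressed cells belonged to Mrpl30 at -2.34, Mrpl51 and Mrpl47 at -2.06 each, Mrpl54, and Mrpl33 at -2.0. Of these, Mrpl33 was already low in control cells, at -1.12, and so was Mrpl51, at -0.68.

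In the small subunit the largest fall of all members was that of Mrps28. Its P signal went from 2842 to 927 and its FM signal from 355 to 2656, a P/FM ratio of 8.01 in control and 0.349 in stressed cells. The log2 values were 3.00, the highest of all members in control cells, and -1.52. The change of -4.52 ranked 3 among all 10033 mRNAs, and it rests on 1 probe. Mrps24 went from 0.64 to -2.60, the lowest value of any member under stress, a change of -3.24. Mrps16 and Mrps34 changed by -2.95 and -2.88. Mrps12, whose bacterial counterpart sits at the decoding site, went from 1.75 to -1.08.

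The Mrps18 family has 3 paralogues, of which Mrps18c is the closest in place to the bacterial protein and Mrps18a belongs to the large subunit in known structures. Mrps18c went from 1.96 to -1.28, and its probes gave changes of -3.21 and -3.27. Mrps18a went from 1.33 to -1.41 and Mrps18b from 2.01 to -0.14. The paralogues thus ended in the order Mrps18b, Mrps18c, Mrps18a, with Mrps18c and Mrps18a 0.13 apart, within the spread between probes. The smallest changes in the subunit apart from Mrps25 were those of Mrps31 at -0.61, Mrps21 at -0.94 and Mrps22 at -1.0. Mrps31, known from mitochondria and not from bacteria, and Mrps22 kept positive values under stress, 0.92 and 0.48. Mrps2 and Mrps21 were the lowest of the subunit in control cells, at -0.76 and -0.94. The probes of Mrps2 stood far apart there, at -1.69 and 0.18, and closer in their changes, at -0.94 and -1.41.

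The subunits had similar values. The large subunit (47 accessions) had medians of 1.34 in control and -0.94 in stressed cells, and the small subunit (30 accessions) of 1.2 and -1.19. The median changes were -2.30 and -2.16. The difference of -0.14 between these was not tested, and with loess its sign turned, with medians of -1.13 for the large and -1.22 for the small subunit. The quartiles of the change, -2.67 and -1.27 for the large and -2.72 and -1.5 for the small subunit, overlapped nearly throughout. Sensitive were 41 of 47 large-subunit and 28 of 30 small-subunit accessions. Counting Mrps30 and Mrps18a with the large subunit, where structures place them, left both medians at -2.30 and -2.16. Members listed as having a bacterial counterpart (47 accessions) and the others (30 accessions) had median changes of -2.30 and -2.16. Sensitive were 43 and 26 of them. The list took in Mrpl55 and, of the Mrps18 paralogues, only Mrps18c, so the split is approximate.

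The fall in log2 P/FM came with changes in both fractions. Between control and stressed cells the median log2 P signal of the members differed by -0.95 and the median log2 FM signal by 1.14, against 0.02 and 0.72 for all mRNAs. A lower P signal together with a higher FM signal was found for 68 of 77 members, against 44.5% of all mRNAs. The FM signal was higher for 72 members and by 1 or more for 47, while 32.4% of all mRNAs gained as much. The lower quartile of the FM change over all mRNAs was 0.27, so most of them were higher too. A P signal lower by 1 or more was found for 37 members, against 12.8% of all. Mrps28, Mrpl14 and Mrpl20 had the largest gains in FM, 2.90, 2.66 and 2.60 on the log2 scale, and Mrpl28 the largest loss in P, -2.22. Because 300 ng of RNA was labelled per condition, each of these is a share of the labelled RNA and not an amount per cell.

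**Figure D2:**
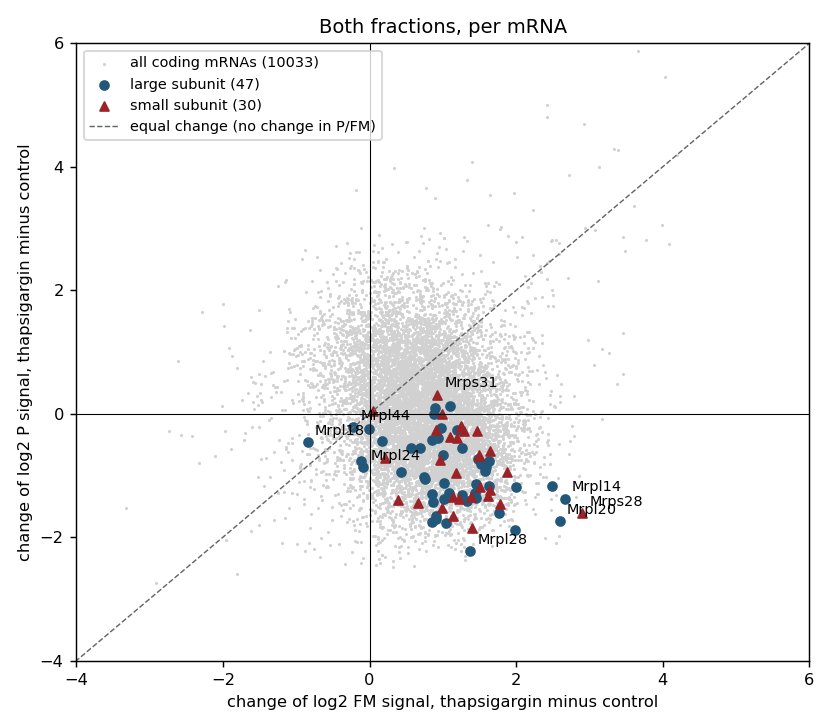
Change of the log2 signal in the FM fraction (horizontal) and in the P fraction (vertical), thapsigargin minus control, for 10033 coding mRNAs (grey), large-subunit (blue circles) and small-subunit members (red triangles). Points below the dashed line lost log2 P/FM on unscaled values. Of the members, 68 lie at the lower right, with less P and more FM. Mrpl18 lies at the lower left with less of both, as do Mrpl17, Mrpl24, Mrpl41 and Mrpl44, which lost less FM.

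Total signal moved little. The median change in A was 0.11 for the members and 0.37 for all mRNAs, and 48 members were higher and 29 lower. Over all mRNAs the lower quartile was 0.03, above 0, so a larger share of them than of the members was higher. None of the 77 differed by 1 or more in either direction, while 11.7% of all mRNAs gained and 0.698% lost as much. The largest gains were 0.65 for Mrpl21, 0.64 each for Mrps28 and Mrpl14, 0.62 for Mrps31 and 0.61 for an accession of Mrpl1. The largest losses were those of Mrpl18 (-0.65), Mrps11 (-0.51), Mrpl24 (-0.47), Mrpl37 (-0.45) and Mrpl17 (-0.44). For log2 P/FM, Pearson's r between control and stressed cells over the 77 accessions was 0.277 and Spearman's rho 0.273, against an r of 0.287 and a rho of 0.154 over all mRNAs, whose arrays and labellings they share. The median change in A turned negative, to -0.28, with the signals as processed by the scanner software, and to -0.25 with normexp background correction.

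Of the 8 members short of the threshold, 4 were averages that took in a dim probe opposite in direction to the brighter ones. Of the 77 accessions, 51 had 1 probe, 19 had 2 and 7 had 3. Of the 110 probes, 105 were well above background in both channels on both arrays, and 5 were not. Those 5 belonged to Mrpl1, Mrpl17, Mrpl35, Mrpl41 and Mrps25, each beside a brighter probe placed further towards the start of its transcript. For Mrpl17 the bright probe, at transcript position 603, changed by -2.75, and the dim one, at position 3829, by 1.45. For Mrps25 the changes were -1.92 at position 1398 and 1.92 at position 5245, which average to 0.00. Mrpl41, a protein that also binds Bcl2, gave -1.47 at position 657 and 1.00 at position 1944. Mrpl35 gave -2.11 and -1.22 by its brighter probes and 1.49 by the dim one at position 3368. Mrpl1, whose average was past the threshold, gave -1.73 and -0.23. At a dim probe at least 1 signal is only a bound, so its ratio carries no firm direction.

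With only the probes well above background, which was chosen after the data were seen, 73 of 77 members were sensitive, against 47.3% of all mRNAs, and 75 were below 0. Counted by probe, 96 of the 105 were sensitive, against 46.0% of all such probes, and 100 were below 0. The median change was then -2.22, and over all mRNAs, with every probe averaged, it was -0.71. Bright probes of one member mostly gave close values: over 22 members with more than 1, the median SD of the change was 0.12 and the largest 1.17. That largest value was for Mrpl50, with -2.11 at position 423 and -0.45 at position 1910. Mrpl49 was the next to stand out, with -3.54, -2.15 and -2.02. For Mrps23, Mrpl38, Mrpl45 and Mrpl3 the probes gave nearly the same change, although those of Mrps23 overlap by 21 bases, as a pair of Mrpl40 does by 24. The accessions of Mrps33 had changes of -2.26 and -1.58, and those of Mrpl1, by bright probes, of -1.33 and -1.73.

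**Figure D3:**
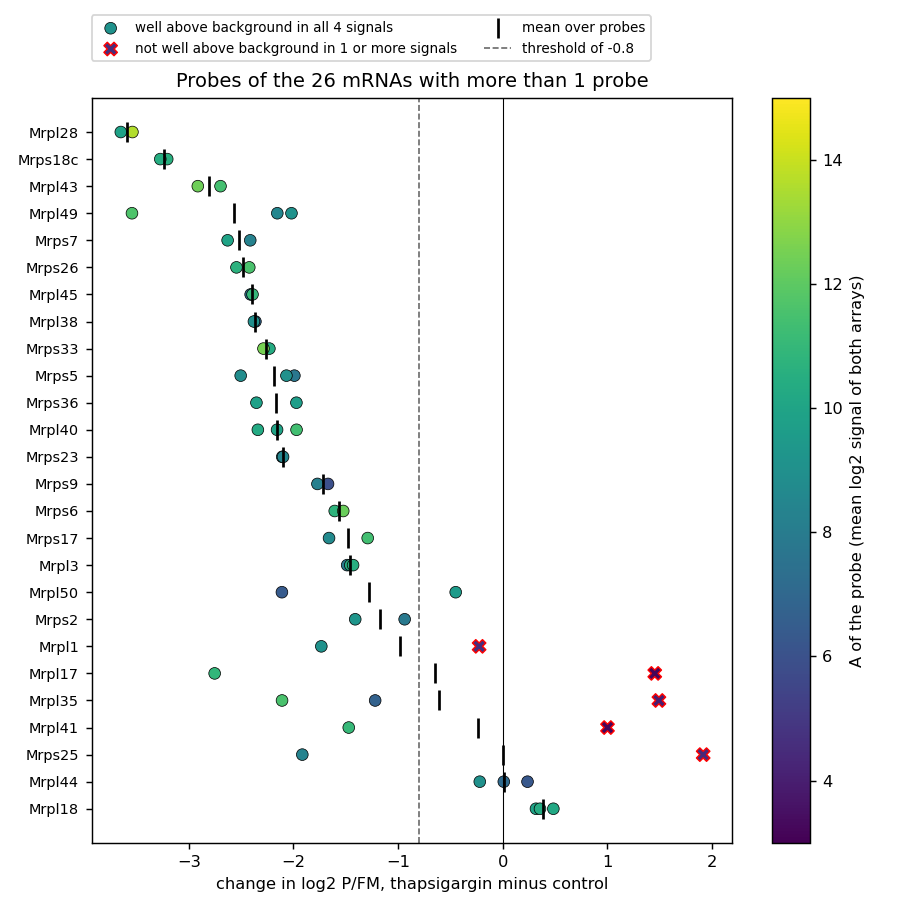
Change in log2 P/FM by each probe of the 26 accessions with more than 1 probe, on unscaled values, with circles for probes well above background in both channels on both arrays and crosses for the others, coloured by signal level A, and bars for the mean over probes. The crosses, at Mrpl1, Mrpl17, Mrpl35, Mrpl41 and Mrps25, all lie to the right of the other probes of their mRNA.

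After this step 4 members stayed short of the threshold: Mrpl24, Mrps31, Mrpl44 and Mrpl18. Mrpl18 belongs to a family that binds 5S rRNA in bacteria and the cytosol, and a cytosolic form of it is known from the heat shock response. Its P signal was 945 in control and 687 in stressed cells, and its FM signal 2153 and 1199. Like Mrpl24 and Mrpl44, it thus lost signal in both fractions. Its log2 P/FM was -1.19 in control, the lowest of all members, and -0.80 in stressed cells. The change of 0.39, or 1.1 relative to all mRNAs, came from 3 probes with 0.32, 0.36 and 0.48. It was positive in all 4 other scalings examined as well, from 0.98 centred on array medians to 2.94 with spike-ins.

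Mrpl44, which resembles an RNA-cleaving enzyme of the RNase III family, was at 0.50 in control and 0.51 in stressed cells. Its probes gave 0.24, 0.01 and -0.22, so no direction stands out from their spread. Mrps31 went from 1.53 to 0.92 by 1 probe and was the one member called resistant over all probes, with 0.8 or more on both arrays, against 3.00% of all mRNAs. By its bright probe alone Mrpl41 was resistant too, with 2.38 in control and 0.91 in stressed cells. The change of Mrps31 was 0.21 with loess, so its direction rests on the scaling. No member was inducible (at or below 0 in control cells with a rise of 1 or more), which 8.86% of all mRNAs were. Few members could be, because 69 of 77 were at or above 0 in control cells, against 63.5% of all mRNAs. At the threshold of sensitivity itself, Mrpl32 lay just inside and Mrpl24 just outside, 0.02 apart, and the rank of neither is firm.

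Members were brighter than most mRNAs, with a median A of 9.76 in control cells against 7.40 over all, and brighter mRNAs had larger falls. Over the 77 accessions Pearson's r between mean A and the change was -0.51 and Spearman's rho -0.53, and over all 10033 mRNAs r was -0.39 and rho -0.39. These points share their arrays, and the dimmest probes enter them. Within ranges of A the members still lay lower than other mRNAs. For A of 7 to 9 the median change was -1.46 for 22 members and -0.67 for all 3240 mRNAs. For 9 to 11 it was -2.40 for 30 members and -1.26 for all, and for 11 to 13 it was -2.60 for 19 members and -1.71 for all. Below the median of their own range were 18 of 22, 26 of 30 and 15 of 19 members. The ranges of 4.5 to 7 and above 13 held 3 members each. Median control log2 P/FM was 1.04, 1.5 and 1.33 for the members in the 3 middle ranges, from dim to bright, against 0.45, 0.82 and 1.07 for all mRNAs. Over the 77 accessions Pearson's r between control log2 P/FM and the change was -0.71 and Spearman's rho -0.68. The change is stress minus control and so contains the control value, which makes part of that relation arithmetic. What part of the change goes with signal level was not tested beyond these ranges, and what part goes with the control value was not tested.

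**Figure D4:**
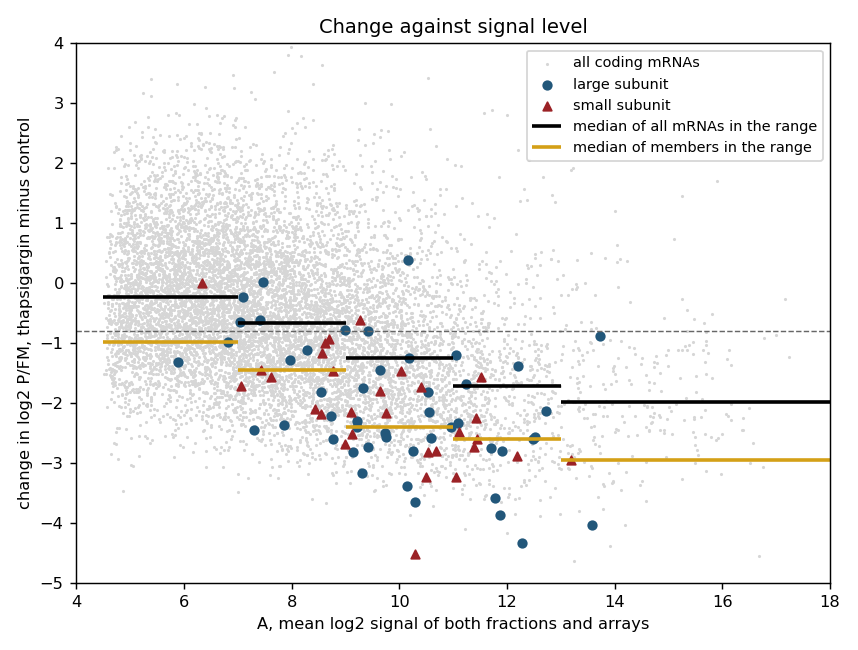
Change in log2 P/FM on unscaled values against A, the mean log2 signal of both fractions and arrays, for all coding mRNAs (grey) and members of the large (circles) and small subunit (triangles), with medians over ranges of A for all mRNAs (black) and for members (yellow). The yellow line lies below the black one in each range, and the dashed line marks the threshold of -0.8.

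Other genes of mitochondrial translation were less uniform. Of 7 detected mRNAs for mitochondrial ribosomal proteins with other names, 4 were sensitive (47% of all mRNAs were): Ict1, a peptidyl-tRNA hydrolase built into the large subunit (-3.57), Aurkaip1 (-2.94), Gadd45gip1 (-2.46) and Chchd1 (-1.97). Dap3, a GTP-binding protein of the small subunit, changed by -0.47 and Ptcd3 by -0.57. Mrp63 changed by 0.30, and it and Dap3 each had a probe that was not well above background. Among 11 mitochondrial translation factors the median change was -0.69, close to that of all mRNAs, and 5 were sensitive, a share near that of all mRNAs. The elongation factors Tufm, at -2.35, and Tsfm, at -1.79, had the largest falls of that list. Mtif2, an initiation factor, changed by 0.50, while Mtif3, also an initiation factor, changed by -1.52. Gfm2, which acts in ribosome recycling, changed by 0.26. Of 15 detected mitoribosome assembly factors 11 were sensitive, with a median of -1.24, led by Malsu1, listed on the array as 2410003K15Rik (-3.10), and Mpv17l2 (-2.94). A further mRNA, D10Ertd322e, is now named Mrpl42 and lay outside the naming rule. It was at -2.79 in control cells, below every member that the rule took in, and at -2.5 in stressed cells, a change of 0.29.

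Respiratory complex I and cytosolic ribosomal proteins were the closest groups for comparison. Nduf mRNAs (41 accessions, 4 of them for assembly factors) had medians of 1.61 in control and -1.35 in stressed cells and a median change of -2.79, and 37 were sensitive. Cytosolic ribosomal protein mRNAs (79 accessions, found by their Rpl and Rps names without kinases and binding proteins) had a median change of -2.05, and 76 were sensitive, but they started from -1.92 and ended at -4.05. The quartiles of control log2 P/FM, -2.70 and -1.23 for cytosolic and 0.53 and 1.75 for mitochondrial ribosomal proteins, did not overlap. In control cells 2 of the 79 cytosolic mRNAs were at or above 0, so few could cross to below it, and 1 did. Of the members 69 of 77 were at or above 0, and 60 crossed, so these counts follow the starting values. Their FM signal gained 0.42 at the median where that of the mitochondrial group gained 1.14, and their median change in A was -0.58. The cytosolic group was also far brighter, with a median A of 15.2 in control cells against 9.76, and the part of signal level in the difference was not tested. With 1 array per condition none of these differences was tested.

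**Figure D5:**
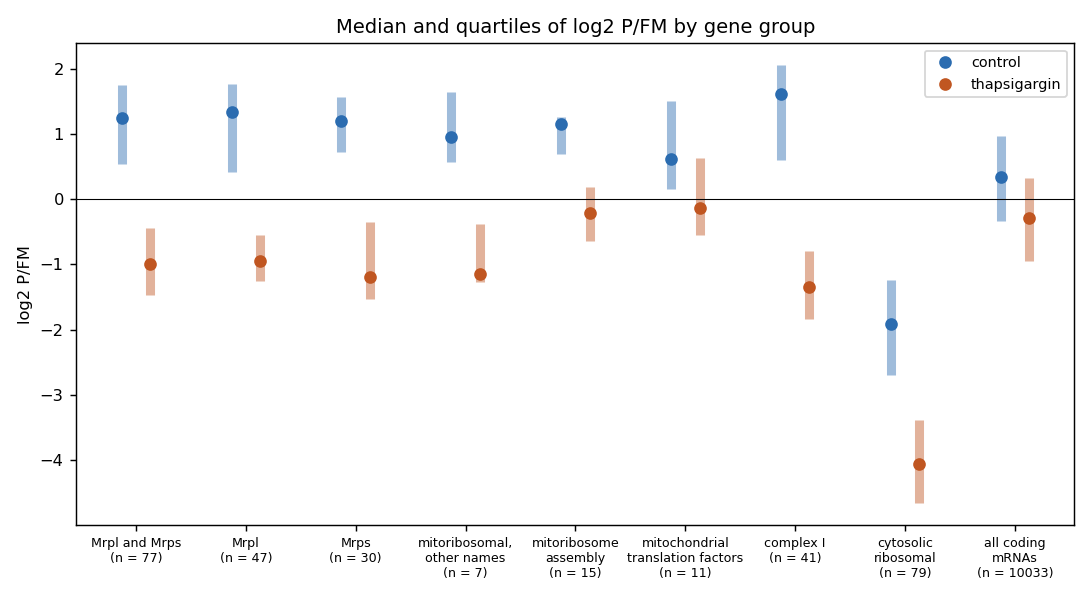
Median (points) and quartiles (bars) of log2 P/FM in control (blue) and thapsigargin-treated cells (orange), by gene group, with the number of accessions in brackets. On these unscaled values both mitochondrial subunits start near 1.2 to 1.34 and end near -1, complex I starts higher, and cytosolic ribosomal protein mRNAs lie lower in both conditions.

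The promoters of the members were also searched for short motifs, as a description apart from the change under stress. RefSeq promoters (GRCm38.p6, 250 bases before to 50 after the start) matched 66 of the 75 genes by current symbol. On either strand, the ETS core CCGGAAG was found in 24 of the 66 genes (36.4%), in 22.1% of genes detected here and in 9.93% of all genes with a promoter. The NRF1 core GCGCATGC was found in 8 genes (12.1%), against 6.48% of detected genes and 3.05% of all. The YY1 core AAGATGGC was found in 11 (16.7%), against 5.82% and 3.19%. CCAAT was found in 26 (39.4%), against 44.0% and 41.1%, and TATAAA in 5 (7.58%), against 8.60% and 15.7%. No letters of one motif contain another. The 100 bases before the start of Mrpl22 hold an ETS and an NRF1 match (capitals). They are set beside those of Mrpl18, which hold none of the 5 motifs in this window. The same window also held none for Mrpl20, Mrpl14 and Mrpl21, which had larger falls than Mrpl22, and a CCAAT match for Mrpl28 and Mrpl2. No relation between a motif and the change in log2 P/FM was tested.
Mrpl22, chr11:58171564-58171663, plus strand: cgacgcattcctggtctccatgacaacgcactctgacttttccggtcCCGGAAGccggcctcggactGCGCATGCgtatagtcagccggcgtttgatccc
Mrpl18, chr17:12916092-12916191, minus strand: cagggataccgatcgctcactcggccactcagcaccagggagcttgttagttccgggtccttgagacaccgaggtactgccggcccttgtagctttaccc
A match is a run of letters and not a site shown to be bound.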

How the data were processed

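Polysome-bound and free plus monosome RNA of control and thapsigargin-treated NIH3T3 cells was measured on 2 two-colour arrays, 1 per condition, on the same slide and scan. Per the file headers, the deposited intensity values were extracted with Feature Extraction 10.7.1.1 and not normalized; the same software also gave background-subtracted, dye-normalized intensity values. The deposited log10 values are its ratio of Cy5 to Cy3 after dye normalization. The authors also deposited log2 ratios of Cy3 to Cy5. Flags of 0 or 1 marked outliers and spots well above background.

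With limma 3.58.1 (R 4.3.3), each spot's mean signal was reduced by its median local background, with a floor of 0.5, following the study's methods. No normalization was applied. Outlier spots (295) were left out, none of them of a member. Spots were averaged per probe and probes per accession, and changes cover accessions with A above 4.5 on both arrays. Members were named mainly from the 5 highest and 5 lowest of each subunit in each measure, and from those that were resistant, rose, or had dim or several probes. Not all of these were named, and some other members were named for their place in the ribosome. The members, lists and thresholds were chosen with earlier results of these data known. The steps were tested on simulated data. Current symbols came from a RefSeq table (GRCm38.p6), used for names only, which matched all 77 accessions. Probe positions are on mm9 as deposited. Alternatives were other background corrections, scalings, filters and units.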

Additional observations from a re-analysis of the deposited data

How the results depend on the processing

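With 1 array per condition no sample could be left out. Shifts under the SD between probes of one mRNA, 0.32 for the change, were counted as small, although that SD is not the error of a median over members. No paired analysis was possible because each condition had 1 array. Of 17 alternatives, 11 shifted the median change of all members by less than that and 16 kept the number of sensitive members within 1.5 times of 69. The alternatives with larger shifts were scalings and background corrections, given here in the order all members, Mrpl, Mrps. The median change was -1.54, -1.54 and -1.48 with normexp, -1.31, -1.22 and -1.36 with processed signals and with the log ratio of Feature Extraction, -1.19, -1.13 and -1.22 with loess, and -1.59, -1.70 and -1.56 when centred on each array median. Scaled on spike-ins it turned positive, to 0.36, 0.25 and 0.39, and 7 members were sensitive, against 0.638% of all mRNAs. The control median was 0.72 with normexp, 0.73 with processed signals or the log ratio, 0.67 with loess, 0.93 when centred and 1.65 with spike-ins. The median in stressed cells was -0.59 with processed signals or the log ratio, -0.62 with loess, -0.70 when centred and 1.97 with spike-ins. The median change in A was -0.25 with normexp, -0.28 with processed signals and 0.37 with spike-ins. Centring and spike-ins shift all mRNAs alike and cannot move the members relative to them. Relative to all mRNAs the median change was -1.48 unscaled, -1.04 with loess and -1.03 with processed signals, with 70, 64 and 63 members below the median of all. Averaging only probes well above background was added after the data were seen. The strictest filter on A, above 7, removed 4 members.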
